A study of Mus musculus with 28 samples.

Results

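Expression of 10 genes tied to polycystic kidney and liver disease was examined in mIMCD-3 cells, a mouse kidney line of inner medullary collecting duct epithelium. The genes, Pkd1, Pkd2, Pkhd1, Dzip1l, Ganab, Prkcsh, Sec63, Dnajb11, Alg8 and Alg9, were chosen by name and are 10 of 45706 genes listed. RNA sequencing had been done on 28 libraries in 7 groups of 4. The groups were polyclonal wild-type cells, the monoclonal wild-type line WT5, which was grown from 1 sorted cell of that population, and subclones 1 to 5, each grown from 1 sorted cell of WT5. No group was treated or genome-edited, and all were harvested 4 days after confluency in the same medium. WT5 and each subclone are 1 clone each, so a difference between groups is a difference between these lines. The labels do not tie the 4 libraries of a line to separate cultures, and the p-values measure only the spread between libraries.

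Polycystin-1 and polycystin-2, encoded by Pkd1 and Pkd2, form a complex in the primary cilium of tubule cells, and loss of either gene causes dominant polycystic kidney disease. Fibrocystin, encoded by Pkhd1, and the ciliary protein DZIP1L are altered in recessive disease. The other members act in the endoplasmic reticulum, where polycystin-1 and other membrane proteins are imported, glycosylated and folded, and their loss gives liver cysts, kidney cysts or both.

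Every member had TPM (a level per length of transcript, scaled to the same total in every library) above 0 in all 28 libraries. In WT5 the mean levels ran from 268 TPM for Ganab and 175 TPM for Prkcsh, over 122 TPM for Dnajb11, 43.3 TPM for Sec63, 36.1 TPM for Pkd2, 32.2 TPM for Dzip1l, 16.1 TPM for Alg9, 15.7 TPM for Alg8 and 13.8 TPM for Pkhd1, to 8.66 TPM for Pkd1. Neighbours in this order overlapped between libraries for Pkd2 and Dzip1l, for Alg9 and Alg8, and for Alg8 and Pkhd1. In polyclonal cells Pkd1 and Pkhd1 were the members with the lowest levels and overlapped each other, as did Sec63 and Pkd2. The level of polycystin-1 mRNA was below that of polycystin-2 mRNA in every library.

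The promoter of Dnajb11 is shown because this member fell between polyclonal cells and WT5 and because it holds a match that is rare among promoters. The sequence is that of RefSeq on GRCm38.p6, from 250 bases before to 50 bases after the start of transcription, and all 10 members matched an entry, with 11 promoter entries in all. Capitals mark the letters ATTGG, any base and CCACG, known as ERSE-II (bases 258 to 268 of the window). The window is chr16:22857595-22857894 on the plus strand.
Dnajb11: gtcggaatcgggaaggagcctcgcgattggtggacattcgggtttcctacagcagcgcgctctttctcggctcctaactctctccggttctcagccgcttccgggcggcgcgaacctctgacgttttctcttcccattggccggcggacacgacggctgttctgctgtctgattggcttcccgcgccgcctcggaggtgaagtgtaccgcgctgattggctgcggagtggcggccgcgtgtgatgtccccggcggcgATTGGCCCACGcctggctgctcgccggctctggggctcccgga

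With both strands searched, ERSE-II was found in 12 of 32851 promoters (0.0365%), and among the members in Dnajb11. The related ERSE motif, CCAAT and CCACG with 9 bases between, was in 39 promoters (0.119%) and in none of the members. The CCAAT box was in 37.4% of promoters and in 4 members, Alg9, Sec63, Dnajb11 and Ganab, with 5 copies in Dnajb11. One of those copies is the first part of its ERSE-II match. A match gives the letters in this window and not a bound site. The part of the ERSE-II match in the level of Dnajb11 was not tested.

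Several facts of the libraries touch all results. Polyclonal cells were sequenced as short single-end reads and WT5 as longer paired-end reads, at different times, so the line and the sequencing cannot be told apart. The subclones are in a table of their own, and what sets all 5 of them apart from WT5 cannot be told apart from a difference between tables. The read depth behind a TPM value is unknown. Epithelial markers were present throughout, at a sum of 1999 to 2306 TPM over 7 genes in polyclonal libraries, 4168 to 4327 TPM in WT5 and 2442 to 3200 TPM in the subclones. Of 12 collecting duct markers 8 had a mean of at least 1 TPM in polyclonal cells and 5 in WT5, and Aqp2, the defining water channel of the duct, was listed at 0 in all 28 libraries. Markers of proximal tubule, endothelium, immune cells and fibroblasts summed to at most 10.3, 0.29, 4.68 and 2.12 TPM. The 3 podocyte markers summed to 0.37 to 0.52 TPM in polyclonal libraries, 14.7 to 16.2 TPM in WT5 and up to 27.9 TPM in subclones, with Nphs1 at 0 in WT5 and in every subclone library. The part of these markers in the results was not tested.

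WT5 and polyclonal cells were compared to ask how far isolation of a clone changes the wild-type background. Of the 10 members, 7 passed at an adjusted p below 0.01 (limma, Benjamini-Hochberg over 13723 genes), against 65.5% of all genes tested. Pkd1, Pkhd1, Dzip1l, Prkcsh and Ganab were higher in WT5 and Dnajb11 and Alg9 lower. The test was run on log2(TPM) z-scored within each library, where a difference of 1 stands for 8.56-fold in TPM at the mean SD of the libraries. Each library has its own mean and SD, so a z-score difference does not convert to a fixed fold. No member was past a z-score difference of 1 as well, against 5.43% of all genes. The count was also 0 by the unequal-variance test and at an unadjusted p below 0.05, where 8 members passed before the size was required. With log2(TPM) without z-scores and a log2 difference above 1, Pkd1, Pkhd1 and Dzip1l passed, 3 of 10 against 25.5% of all genes. The median log2 difference of all genes was 0.24 on that scale.

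**Figure D1:**
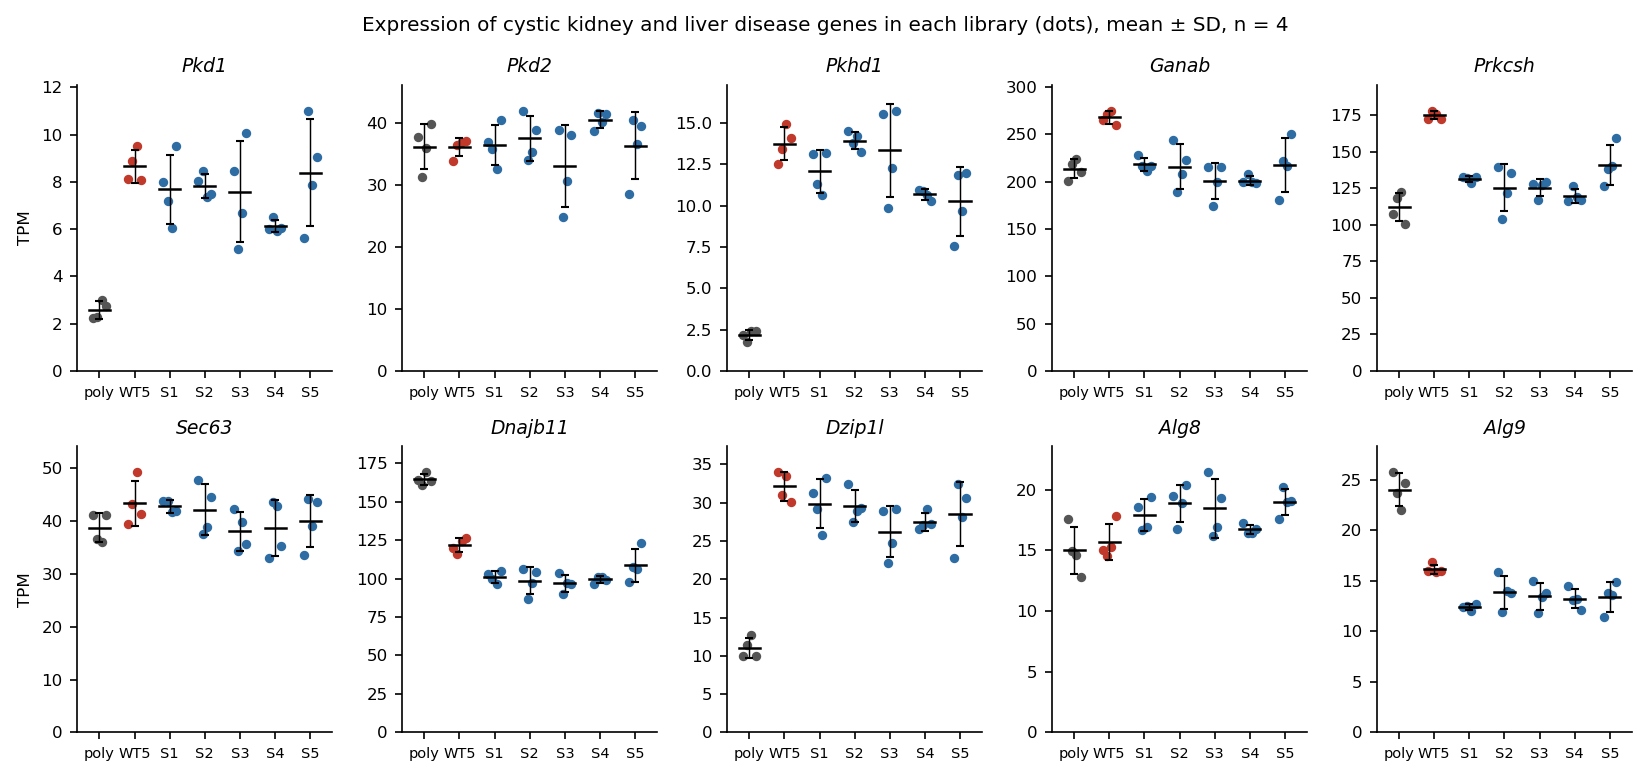
TPM of each member (y axis, linear from 0) in polyclonal cells (grey), WT5 (red) and subclones S1 to S5 (blue). Dots are libraries, bars the mean and SD of 4. In polyclonal cells Pkd1, Pkhd1 and Dzip1l sat below all 24 other libraries, and Dnajb11 and Alg9 sat above them. Polyclonal cells and WT5 overlapped for Pkd2, Sec63 and Alg8. The share of all genes set apart in this way is not given here.

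Among the polycystins, Pkd1 (ENSMUSG00000032855, GRCm38 chromosome 17 from 24549834 to 24596508, plus strand, 46 exons in its longest transcript) had 2.26, 2.27, 3.01 and 2.75 TPM in the polyclonal libraries and 8.13, 8.90, 9.54 and 8.07 TPM in WT5. Every WT5 library was above every polyclonal library. The means were 2.57 ± 0.371 and 8.66 ± 0.698 TPM (SD, n = 4), 3.37-fold, with a z-score difference of 0.49 ± 0.0314 (SE, limma adjusted p = 4e-06). Tsc2 overlaps Pkd1 on the opposite strand, and 4.56% of the 50-base stretches of the longest Pkd1 transcript also occur in Tsc2 transcripts. Whether the libraries kept strand is not given in the sources used here. Tsc2 itself was at 36.1 TPM in polyclonal cells and 30.1 TPM in WT5, the opposite direction to Pkd1.

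Pkd2 (ENSMUSG00000034462, chromosome 5 from 104459450 to 104505819, plus strand), which encodes the channel subunit of the pair, had 37.69, 31.27, 35.98 and 39.85 TPM in polyclonal libraries and 33.92, 36.42, 36.99 and 37.12 TPM in WT5. The groups overlapped, with all WT5 values inside the polyclonal range. The z-score difference was -0.07 (95% interval -0.13 to -0.0083, adjusted p = 0.0412, limma) and the log2 difference without z-scores 0.00. Without polyclonal replicate 2, the lowest of its group, the gene passed as lower in WT5 by the z-score test (adjusted p = 0.00628).

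The ratio of Pkd1 to Pkd2 within a library does not depend on the scaling of the library. It was 0.06, 0.0726, 0.0837 and 0.069 in polyclonal libraries and 0.24, 0.244, 0.258 and 0.217 in WT5. The groups did not overlap, and the log2 ratio differed by 1.76 (standard error 0.112, two-sided exact permutation p = 0.0286, which 4 against 4 libraries cannot go below, adjusted over 12 ratio comparisons 0.0571).

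**Figure D2:**
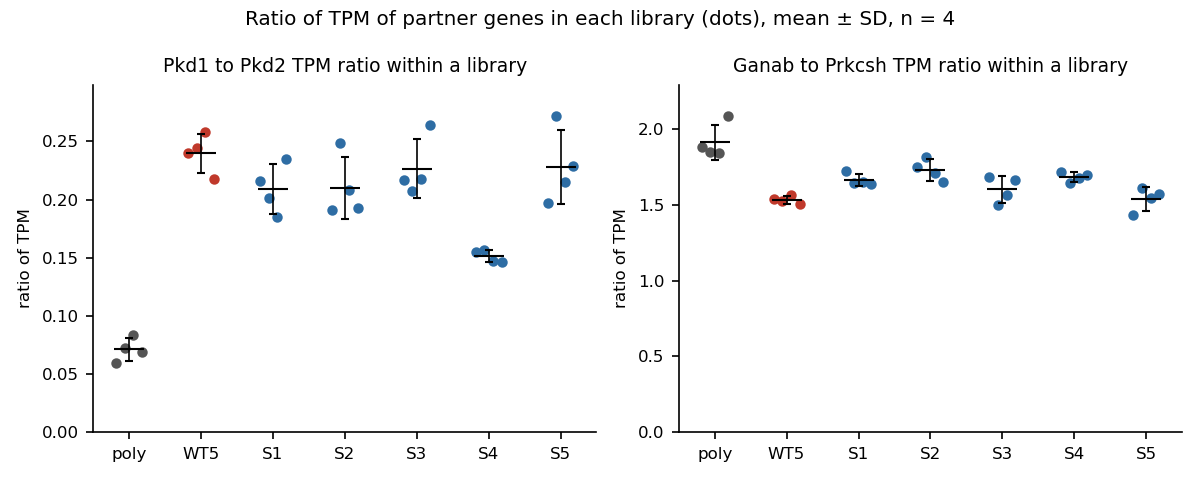
Ratio of TPM within each library for Pkd1 to Pkd2 (left) and Ganab to Prkcsh (right), y axes linear from 0, by group. Dots are libraries, bars the mean and SD of 4. The Pkd1 to Pkd2 ratio was at most 0.0837 in polyclonal cells, 0.146 to 0.157 in subclone 4 and 0.185 to 0.272 in WT5 and the other subclones.

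Pkhd1 (ENSMUSG00000043760, chromosome 1 from 20057779 to 20618064, minus strand, 67 exons in its longest transcript), the fibrocystin gene, changed most among the members. It had 2.15, 1.78, 2.43 and 2.39 TPM in polyclonal libraries and 12.55, 13.46, 14.97 and 14.07 TPM in WT5. The lowest WT5 library was above the highest polyclonal one, and the means of 2.19 ± 0.298 and 13.8 ± 1.02 TPM (SD, n = 4) stood 6.29-fold apart. The z-score difference of 0.78 ± 0.0295 (SE, limma adjusted p = 2.67e-07) was exceeded by 3.78% of the genes tested. With genes of a mean TPM of at least 1 it was past 1, and Pkhd1 then counted as differentially expressed.

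Dzip1l (ENSMUSG00000037784, chromosome 9 from 99629496 to 99669256, plus strand), which encodes a protein at the base of the cilium, had 9.97, 11.38, 12.67 and 9.92 TPM in polyclonal libraries. In WT5 it had 34.00, 31.04, 33.52 and 30.06 TPM. The groups stood 2.93-fold apart without overlap, with a z-score difference of 0.43 ± 0.0278 (SE, limma adjusted p = 4.13e-06). Both genes of recessive disease thus rose, in 4 of 4 WT5 libraries each.

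Pkd1 and Pkhd1 have longest transcripts of 14164 and 12935 bases, the longest of the members. Among the 279 tested genes with a transcript of 10 kb or more, the median z-score difference between WT5 and polyclonal cells was 0.10 and 63.8% were higher, against a median of 0.0099 for all genes. Among genes with a GC content of 55% or more, as in Pkd1 (56.8%) and Prkcsh (57.4%), the median was also 0.10. The part of transcript length and GC content in the members' differences was not tested.

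Ganab (ENSMUSG00000071650, chromosome 19 from 8898071 to 8916672, plus strand) and Prkcsh (ENSMUSG00000003402, chromosome 9 from 22002806 to 22014222, plus strand) encode the catalytic and regulatory subunits of glucosidase II, which trims glucose from new N-glycans. Prkcsh had 107.12, 118.59, 122.08 and 100.84 TPM in polyclonal libraries and 172.46, 178.16, 175.89 and 172.65 TPM in WT5. The groups did not overlap, at 1.56-fold and a z-score difference of 0.15 ± 0.0164 (SE, limma adjusted p = 9.09e-05). Ganab rose less, from 201.12, 218.74, 224.32 and 210.03 TPM to 265.40, 271.20, 275.06 and 259.66 TPM. Its groups did not overlap either, at 1.25-fold, but the z-score difference of 0.05 (adjusted p = 0.00886, limma) lay close to the threshold. The call was lost when any 1 library other than polyclonal replicate 2 was left out (adjusted p 0.0105 to 0.0522) and with the replicate number as a block (adjusted p = 0.0429). The ratio of Ganab to Prkcsh fell from 1.91 ± 0.116 in polyclonal cells to 1.53 ± 0.0254 in WT5, without overlap (exact permutation p = 0.0286, adjusted 0.0571).

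Dnajb11 (ENSMUSG00000004460, chromosome 16 from 22857845 to 22879634, plus strand) encodes a co-chaperone of BiP in the endoplasmic reticulum. It had 164.21, 160.78, 169.20 and 163.56 TPM in polyclonal libraries and 119.79, 115.99, 124.33 and 126.64 TPM in WT5. Every WT5 library was below every polyclonal one, with polyclonal cells 1.35-fold above WT5 and a z-score difference of -0.20 ± 0.0128 (SE, limma adjusted p = 3.87e-06). Hspa5, the BiP gene itself singled out after its values were seen, went from 664.72 to 509.71 TPM (limma, adjusted p = 5.24e-06). Of the 25 genes of the import channel and BiP machinery, which include Hspa5, 6 passed as higher and 13 as lower. Sec63 (ENSMUSG00000019802, chromosome 10 from 42761496 to 42832514, plus strand), a subunit of the protein import channel, had 35.98 to 41.09 TPM in polyclonal libraries and 39.49 to 49.23 TPM in WT5. These overlapped, and the z-score difference was -0.02 (95% interval -0.08 to 0.05, adjusted p = 0.631). Without z-scores its log2 difference was 0.16, of the other sign.

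Alg8 and Alg9 encode a glucosyltransferase and a mannosyltransferase that build the glycan precursor on dolichol. Alg9 (ENSMUSG00000032059, chromosome 9 from 50775019 to 50843542, plus strand) had 25.74, 23.64, 21.97 and 24.66 TPM in polyclonal libraries and 15.94, 16.81, 15.87 and 15.92 TPM in WT5. The groups did not overlap, with polyclonal cells 1.49-fold above WT5 and a z-score difference of -0.25 ± 0.0209 (SE, limma adjusted p = 1.57e-05). On the opposite strand lies 1110032A03Rik, which shares 16.0% of the 50-base stretches of the longest Alg9 transcript and had 15.4 TPM in polyclonal cells and 12.7 TPM in WT5. Alg8 (ENSMUSG00000035704, chromosome 7 from 97371606 to 97392185, plus strand) had 12.82 to 17.58 TPM in polyclonal libraries and 14.55 to 17.84 TPM in WT5, which overlapped. Its z-score difference was -0.05 (95% interval -0.13 to 0.03, adjusted p = 0.226) and its log2 difference without z-scores 0.07.

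Genes of the same pathways were listed by name and described by their counts in the same comparison, beside the 65.5% of all genes that passed and their median z-score difference of 0.0099. The list of other cyst genes held 22 genes tied to cystic kidney or liver disease or its mouse models, or related in sequence to a member. Of these 21 were tested, of which 7 were higher in WT5 and 5 lower, with a median of 0.0095. Umod, the gene of uromodulin, a secreted protein of the thick ascending limb, had 0.06, 0.04, 0.03 and 0.14 TPM in polyclonal libraries and 3.52, 3.45, 3.22 and 3.33 TPM in WT5. It was the only gene of these lists past both thresholds, with a z-score difference of 1.82 (adjusted p = 9.27e-06, limma), and 15.3% of its 50-base stretches occur in another gene. Sec61b, a subunit of the import channel, rose 2.29-fold, while Glis2 and Ift140, genes of ciliary function, fell, with polyclonal cells 1.70-fold and 1.36-fold above WT5. Of 6 relatives of the polycystins only Pkd2l2 was above 0 in all 8 libraries, and it fell from 2.15 to 1.06 TPM (adjusted p = 1.52e-05).

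**Figure D3:**
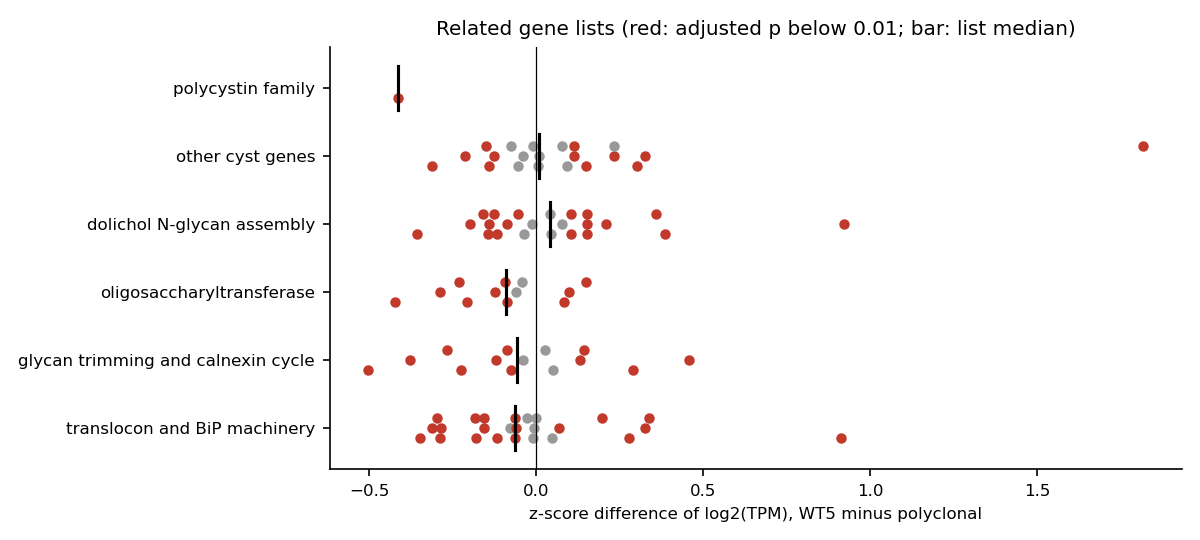
z-score difference of log2(TPM), WT5 minus polyclonal, for each gene of 6 lists of related genes (x axis, z-score units). Red dots passed at an adjusted p below 0.01, grey dots did not, and the bar is the list median. The medians lay between -0.09 and 0.04 except for the 1 tested polycystin relative, and Umod stood at 1.82.

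In the pathway of Alg8 and Alg9, the assembly of the dolichol-linked glycan, 9 of 23 genes were higher and 9 lower, with a median of 0.04. The largest increases were those of Dpm1 (8.72 to 72.9 TPM) and Dpm2 (37.6 to 99.2 TPM), which encode subunits of dolichol phosphate mannose synthase, and Alg14 and Alg11 had the largest decreases (38.7 to 20.8 TPM and 19.3 to 14.8 TPM). Of 12 subunits of the oligosaccharyltransferase, which moves the glycan to proteins, 3 were higher and 7 lower, with a median of -0.09. Rpn2 and Tusc3 rose 1.57-fold and 1.40-fold, while the catalytic subunit gene Stt3a fell from 106.8 to 49.3 TPM and Krtcap2 from 260 to 159 TPM.

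The list of glycan trimming and the calnexin cycle holds genes beyond the cycle in which glucosidase II acts. Of its 14 genes 4 were higher and 7 lower, with a median of -0.06. Engase and the cargo receptor gene Lman1 rose 2.99-fold and 2.14-fold. Ngly1, a deglycosylating enzyme gene, fell from 12.2 to 4.87 TPM and the calnexin gene Canx from 526 to 264 TPM. Of 25 genes of the import channel and the BiP machinery, 6 were higher and 13 lower, with a median of -0.06. Sec61g and Sec11c rose 8.09-fold and 2.39-fold, and Dnajb9 and Ssr3 fell (44.3 to 24.3 TPM and 452 to 262 TPM). Of the 50-base stretches of Sec61g 20.5% also occur elsewhere. For Krtcap2 it is 16.9%, Pkd2l2 15.6%, Sec61b 15.3%, Dpm1 7.45%, Dnajb9 5.8% and Rpn2 3.66%. The levels of these genes are uncertain, as are those of the members Alg9 (16.0%) and Pkd1 (4.56%).

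Each subclone was then compared with its parent WT5, which asks how far a clone drifts after a further round of isolation. At an adjusted p below 0.01 (limma, over 13860 genes), 4 members passed in subclone 1, against 26.3% of all genes, and 1 in subclone 2, against 26.0%. In subclone 3 it was 1, against 19.5%, in subclone 4 it was 6, against 37.3%, and in subclone 5 it was 1, against 21.9%. No member also passed a z-score difference of 1, by limma, by the unequal-variance test or at an unadjusted p below 0.05. Of all genes 0.152%, 0.144%, 0.173%, 0.202% and 0.173% did so by limma in subclones 1 to 5. The 5 comparisons share the WT5 libraries. Genes with a GC content of 55% or more, as in Pkd1 and Prkcsh, had median z-score differences of -0.02 to -0.04 in the 5 subclones, and 31% to 38.9% of them were higher. The part of GC content in these results was not tested either.

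**Figure D4:**
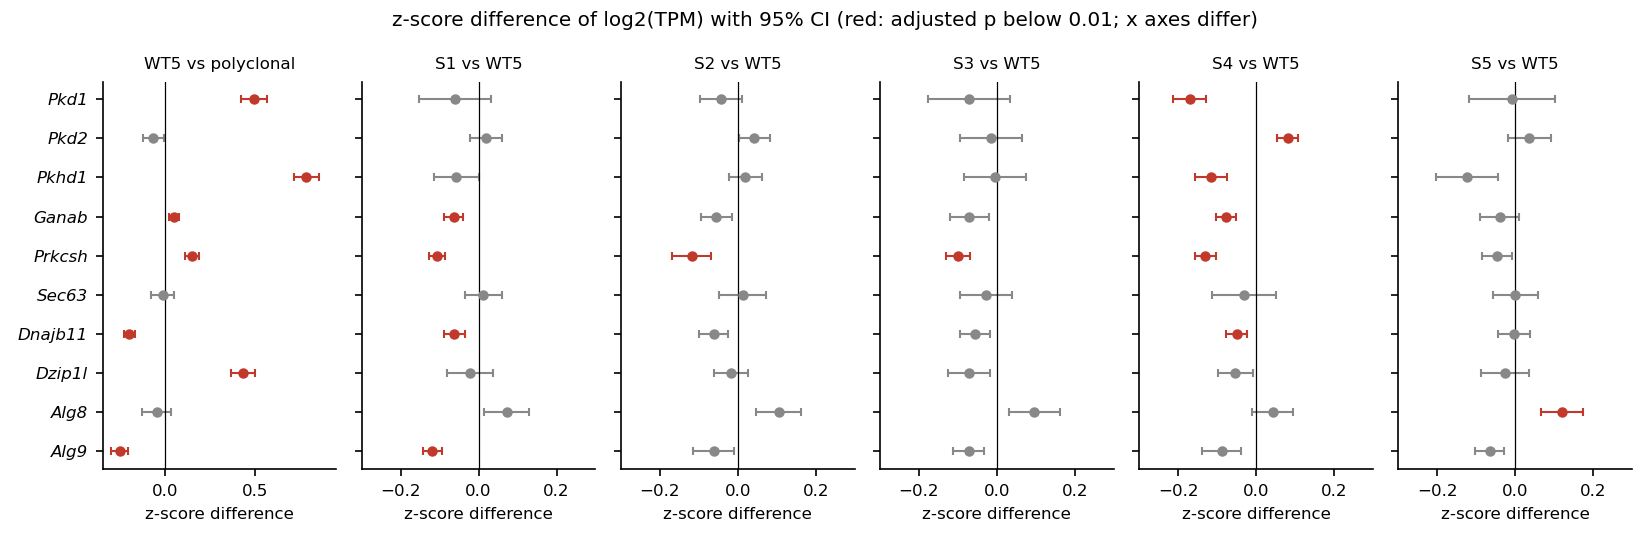
z-score difference of log2(TPM) of each member with its 95% confidence interval, for WT5 against polyclonal cells and for subclones S1 to S5 against WT5 (x axes differ in range). Red marks an adjusted p below 0.01. Differences reached 0.78 between WT5 and polyclonal cells and at most 0.17 in size between a subclone and WT5.

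Subclone 4 held 6 of these calls. Pkd1 had 6.0, 6.52, 5.93 and 6.06 TPM there, below every WT5 library, and WT5 was 1.41-fold above it (z-score difference -0.17, standard error 0.0181, adjusted p = 0.000211, limma). Pkhd1, at 10.93, 10.89, 10.65 and 10.26 TPM, was also below every WT5 library (z-score difference -0.12, adjusted p = 0.00113), a call that the replicate number as a block ended (adjusted p = 0.0118). Pkd2, at 38.76, 41.64, 40.18 and 41.48 TPM, was above every WT5 library (z-score difference 0.08, adjusted p = 0.000796). That call was lost without z-scores (adjusted p = 0.0154) and with all libraries in one fit (adjusted p = 0.0213). The ratio of Pkd1 to Pkd2 was 0.155, 0.157, 0.148 and 0.146, below all WT5 libraries, with a log2 ratio difference of -0.66 (standard error 0.0571, exact permutation test, p = 0.0286, adjusted 0.0571). In the other subclones the ratio overlapped that of WT5, with differences between -0.20 and -0.08.

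The levels of Pkd1 in subclones 1, 2, 3 and 5 overlapped those of WT5, at 6.03 to 9.52, 7.34 to 8.44, 5.16 to 10.06 and 5.64 to 11.02 TPM. Pkhd1 overlapped WT5 in subclones 1 to 3, with 9.87 to 15.76 TPM, and lay below it in subclone 5, at 7.55, 11.85, 9.68 and 12 TPM, where it did not pass (adjusted p = 0.0258). Dzip1l did not pass in any subclone, with means of 26.2 to 29.9 TPM against 32.2 TPM in WT5. It lay below every WT5 library in subclones 3 and 4 (limma, adjusted p = 0.0473 and 0.0485) and overlapped WT5 in subclones 1, 2 and 5. In every subclone library Pkd1, Pkhd1 and Dzip1l stayed above the highest polyclonal library, and Dnajb11 and Alg9 stayed below the lowest. How many of all genes did the same is not given here.

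The other calls of lower levels in subclones were those of Prkcsh, Ganab, Dnajb11 and Alg9. Prkcsh had 172.46 to 178.16 TPM in WT5 and lay below all of these in all 20 subclone libraries, at 104.04 to 159.24 TPM. It passed in subclones 1, 2, 3 and 4, with adjusted p of 0.000186, 0.00437, 0.00124 and 9.36e-05. In subclone 2 the call was lost without WT5 replicate 1, 2, 3 or 4 or subclone 2 replicate 3 (adjusted p 0.0126 to 0.0147), and by the unequal-variance test (adjusted p = 0.0371). The replicate block ended the calls in subclones 2 and 3 (adjusted p = 0.0252 and 0.0235). Ganab also lay below all WT5 libraries in all 20 subclone libraries, at 174.62 to 249.88 TPM against 259.66 to 275.06 TPM. It passed as lower in subclone 1, at 211.58 to 227.98 TPM, and in subclone 4, at 198.21 to 207.79 TPM (limma, adjusted p = 0.00292 and 0.00082). In subclone 1 leaving out WT5 replicate 1, 2 or 3 or subclone 1 replicate 2 ended the call (adjusted p 0.0104 to 0.0117), as did the replicate block (adjusted p = 0.0252). The ratio of Ganab to Prkcsh lay above all WT5 libraries in subclones 1, 2 and 4, with log2 ratio differences of 0.12, 0.17 and 0.14 (exact permutation p = 0.0286 each, adjusted 0.0571), and overlapped WT5 in subclones 3 and 5.

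Dnajb11 passed as lower in subclones 1 and 4, at 96.47 to 104.94 and 96.31 to 101.25 TPM against 115.99 to 126.64 TPM in WT5 (adjusted p = 0.00452 and 0.00918). These calls were lost with most libraries left out in turn, in subclone 1 all but WT5 replicate 2 and subclone 1 replicate 4, and in subclone 4 all but WT5 replicate 2, with adjusted p of at most 0.0299. The replicate block ended both (adjusted p = 0.0267 and 0.035), and the unequal-variance test that of subclone 4 (adjusted p = 0.0129). Alg9 passed in subclone 1, where 12.39, 12.45, 11.97 and 12.74 TPM were below every WT5 library (adjusted p = 0.000194). In the other subclones its means were 13.2 to 13.9 TPM against 16.1 TPM in WT5, and subclone 4 just missed the threshold (limma, adjusted p = 0.0101). Its highest subclone library, at 15.83 TPM in subclone 2, was just below the lowest of WT5, at 15.87 TPM. Prkcsh, Ganab and Alg9 thus lay below WT5 in all 20 subclone libraries. Such a shared shift cannot be told apart from a difference between tables. The share of all genes that lay below WT5 in this way is not given here. Without z-scores the median log2 difference of all genes from WT5 was -0.037 to -0.098 in the 5 subclones.

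Alg8 passed as higher in subclone 5, at 17.59, 20.24, 19.01 and 19.08 TPM against 14.55 to 17.84 TPM in WT5, which overlap (adjusted p = 0.0057). Leaving out any 1 of the 8 libraries but WT5 replicate 4 ended this call (adjusted p 0.0115 to 0.0195), as did the replicate block (0.0309), the unequal-variance test (0.0334) and log2(TPM) without z-scores (adjusted p = 0.033). Sec63 did not pass in any subclone, with 32.95 to 47.64 TPM over the 20 libraries. Within each related list, between 0 and 8 genes passed in a given subclone, and none of them past both thresholds. Of the 12 oligosaccharyltransferase genes 5, 0, 0, 4 and 2 passed by limma in subclones 1 to 5, beside 26.3%, 26.0%, 19.5%, 37.3% and 21.9% of all genes (7 and 4 at an unadjusted p below 0.05 in subclones 2 and 3). Of the 23 dolichol pathway genes 7, 5, 1, 6 and 0 passed (9 at an unadjusted p below 0.05 in subclone 5). Beside the same shares, 7, 6, 2, 3 and 2 of the 22 other cyst genes passed. For the 14 genes of glycan trimming and the calnexin cycle it was 5, 3, 3, 5 and 4. Of the 25 genes of the import channel and BiP machinery 7, 6, 3, 8 and 4 passed. The 1 tested polycystin relative passed in subclones 1, 2 and 3.

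Among the 5 subclones alone, which stay within 1 table, Pkhd1 was the only member that passed the moderated F-test (limma, F = 7.22, adjusted p = 0.00637), 1 of 10 against 25.0% of all genes. Its subclone means ran from 10.3 TPM in subclone 5 and 10.7 TPM in subclone 4 to 12.1, 13.4 and 13.9 TPM in subclones 1, 3 and 2. It was lower in subclone 4 than in subclone 2, with no overlap (z-score difference -0.14, adjusted p = 0.00689, 1 of 10 members against 14.7% of all genes), and lower in subclone 5 than in subclone 2 (-0.14, adjusted p = 0.0071, 1 of 10 against 9.05%). Between subclones 5 and 4, Prkcsh and Alg8 were higher in subclone 5 (adjusted p = 0.00212 and 0.00581, 2 of 10 against 20.5%), with groups that overlapped for Prkcsh. In the other 7 pairs no member passed, where 3.51% to 12.7% of all genes did. Of the related lists, the F-test called 4 of 22 other cyst genes, 1 of 23 dolichol pathway genes and 1 of 12 oligosaccharyltransferase genes. It also called 5 of 14 genes of glycan trimming and the calnexin cycle and 6 of 25 of the import channel and BiP machinery. Of the polycystin relatives it called 0 of 1 (0 at an unadjusted p below 0.05).

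The Pkhd1 call in the F-test was not stable. Without z-scores the adjusted p was 0.0844, with the replicate block 0.0157 and with a pseudocount of 0.1 and the filter relaxed to TPM above 0 in at least 1 library 0.0211. It was also lost without 1 of subclone 2 replicates 1 to 3, subclone 3 replicate 4, any 1 library of subclone 4 or subclone 5 replicate 3 (adjusted p 0.01 to 0.0158). The pair calls of Pkhd1 were lost without 1 of 7 and 1 of 8 of the 20 libraries, that of Alg8 without 1 of 6 and that of Prkcsh without subclone 5 replicate 4 (adjusted p = 0.0101).

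The libraries of subclones 3 and 5 were spread widely for some members. Pkd1 had 8.44, 5.16, 6.67 and 10.06 TPM in subclone 3 and 5.64, 11.02, 7.87 and 9.04 TPM in subclone 5, but 5.93 to 6.52 TPM in subclone 4. Subclone 3 replicate 2 and subclone 5 replicate 1 had the lowest TPM of their subclones for all 10 members. These libraries also had the least TPM in genes with transcripts of 10 kb or more, 4822 and 4926 against 5772 to 6884 in the other libraries of subclones 3 and 5. With both left out, 12 of the calls against WT5 stood in place of 13 (that of Alg8 was lost, adjusted p = 0.012), and 1 member passed the F-test, as before.

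**Figure D5:**
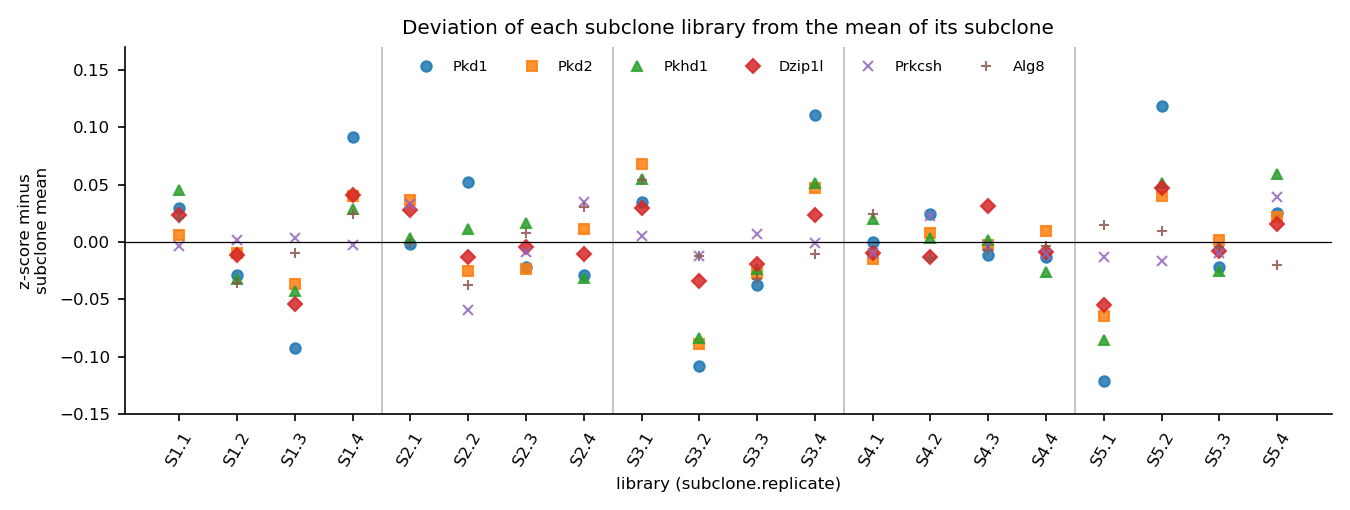
z-score of 6 members in each of 20 subclone libraries minus the mean of its subclone (y axis, z-score units; x axis, subclone and replicate). Pkd1, Pkd2, Pkhd1 and Dzip1l lay low together in S3.2 and S5.1, where Pkd1 was at -0.11 and -0.12, while Prkcsh was at -0.01 in both.

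Over the 20 subclone libraries, deviations from the subclone mean correlated between Pkd1 and Pkhd1 with r = 0.87, between Pkd1 and Pkd2 with r = 0.80 and between Pkd2 and Dzip1l with r = 0.83 (Pearson, as a description, since all genes of a library share its preparation). Without subclone 3 replicate 2 and subclone 5 replicate 1 these were 0.75, 0.63 and 0.79 over 18 libraries. Prkcsh and Dnajb11 correlated with r = 0.80, and Pkd1 and Prkcsh with r = -0.07. Over the 20 libraries Ganab correlated with r = 0.82 for Pkd2, 0.71 for Pkhd1, 0.60 for Dzip1l and 0.52 for Pkd1. For Prkcsh and Dnajb11 it was 0.68 and 0.61. Over the 18 libraries the values for Pkd2, Pkhd1, Dzip1l and Pkd1 fell to 0.61, 0.39, 0.34 and 0.07. Those for Prkcsh and Dnajb11 were 0.78 and 0.71. With the TPM held by genes with transcripts of 10 kb or more, the deviations correlated with r = 0.88 for Pkd1, 0.96 for Pkd2, 0.87 for Pkhd1, 0.83 for Dzip1l and 0.79 for Ganab, and with r of 0.13 to 0.30 for Prkcsh, Sec63, Dnajb11, Alg8 and Alg9. Pkd1 and Pkhd1 count toward that sum.

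The genes most like Pkd1 over the 20 libraries, among 11970 with a mean of at least 1 TPM, were Myo9b, Vps13b and Micall1 (Pearson r of z-scores 0.95, 0.94 and 0.93). Those most like Pkd2 were Zmynd11, Pcnx and Lamb1 (r = 0.93, 0.93 and 0.92), and those most like Pkhd1 were Piezo2, Tns1 and Chd7 (r = 0.95, 0.92 and 0.91). Their longest transcripts have 4355 to 13757 bases. These values were shared by libraries of the same 5 subclones and describe likeness over them.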

How the data were processed

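RNA of mIMCD-3 cells had been sequenced in 28 libraries, 4 of each of 7 groups taken from the labels. The authors deposited TPM values, made with STAR 2.7.3a on GRCm38 with the Ensembl release 81 annotation and RSEM 1.3.1, 1 column per library in 2 tables. The tables were joined by gene identifier. TPM holds no depth, so no counting error is given. The members and lists were chosen with earlier results of these data known. Genes named beside the members were the 2 largest increases and decreases of each list that passed between WT5 and polyclonal cells, list genes past both thresholds, and the 3 genes most like Pkd1, Pkd2 and Pkhd1; Tsc2, Hspa5 and 1110032A03Rik were added after their values were seen.

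log2(TPM) without a pseudocount was z-scored within each library over genes above 0 in all libraries of the comparison (8 or 24) and tested two-sided by limma 3.58.1 in R 4.3.3 with only the compared groups in the fit, in place of the unequal-variance test of the methods, which was an alternative. The 5 subclones were compared by a moderated F-test and 10 contrasts of 1 fit of 20 libraries. p-values were adjusted by Benjamini-Hochberg over all genes tested. The limma steps were tested on simulated data. Coordinates, transcripts and overlaps came from GENCODE release M21 (GRCm38), which differs from the annotation release of the authors. Python 3.11.15 with scipy 1.17.1 was used. Alternatives were pseudocounts of 0.1 and 1, other filters and scalings, an adjusted p below 0.05, a mean-variance trend, the replicate block, a fit of all libraries and each library left out. Leaving out a pair of subclone libraries was added after the data were seen. One further promoter motif that was searched is not reported here.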

Additional observations from a re-analysis of the deposited data

Results flagged for a closer look

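Within groups of 4 libraries, 70 in all for the 10 members, 4 had a library set apart from the others by more of the group's range than Dixon's critical value allows, and chance gives about 1 in 20. Ganab had 207.79 TPM in subclone 4 replicate 2, above the other libraries of subclone 4. Prkcsh had 128.36 TPM in subclone 1 replicate 3 and 116.79 TPM in subclone 3 replicate 2, below the others of their subclones. Alg9 had 16.81 TPM in WT5 replicate 2, above the others of WT5. Pkhd1 differed among the 5 subclones by the moderated F-test of limma (adjusted p = 0.00637). The call was lost without z-scores. It was also lost without any 1 of 9 of the 20 libraries, with an adjusted p of 0.01 to 0.0158 by that test.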

How the results depend on the processing

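Between WT5 and polyclonal cells 7 members passed, 6 to 8 with 1 library left out, and none was past both thresholds, but 1 was with genes of a mean TPM of at least 1 and 3 each with log2(TPM) without z-scores and with quantile normalization, where a log2 difference above 1 is required. Over the 5 subclones against WT5, 13 calls were made, 8 to 13 with 1 library left out, 26 at an adjusted p below 0.05, 20 with all 28 libraries in one fit and 6 with the replicate block. Among subclones 1 member passed, 0 to 2 with 1 library left out, 2 with a pseudocount of 1 and with a mean-variance trend, 3 with all 28 libraries in one fit, 4 at an adjusted p below 0.05, and 0 without z-scores, with a pseudocount of 0.1 and the filter relaxed to TPM above 0 in at least 1 library, and with the replicate block. The cause of these changes was not tested. No called direction turned under any alternative run. Same-numbered libraries did not deviate together (r between -0.05 and 0.08), so the numbers were not taken to pair samples. As a block they left 6 members in WT5 against polyclonal cells. In the comparisons that include WT5, each group holds every replicate number, so the block cannot change a z-score difference. There it can change only the p-values, and the unchanged differences are no test of the calls. The ratio differences kept their direction with a pseudocount of 0.1 and with each library left out, except that of Ganab to Prkcsh in subclone 5, at 0.0041 (-0.02 to 0.04). Unknown depth limits all values.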
